A study of Mus musculus with 19 samples.

Results

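Genes of DNA replication and cell division were followed in mouse heart across 4 groups that combine loss of Mcm8 with a model of Kawasaki disease, a vasculitis that affects the coronary arteries. The 40 genes were taken by name from the roles they play in replication licensing, S phase and mitosis. All 40 were among the 25239 gene symbols of the count table, and 39 of them were among the 14301 genes tested. The checkpoint kinase gene Bub1, with a median of 2 counts per library, did not pass the filter on low counts and is given by its levels alone.

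RNA sequencing counts from heart tissue were available for 19 mouse samples. Wild-type hearts after phosphate-buffered saline (PBS) gave 5 libraries, Mcm8-/- hearts after PBS 3, wild-type hearts after LCWE 6 and Mcm8-/- hearts after LCWE 5. LCWE, a cell wall extract of Lactobacillus casei, is injected into mice to induce the vasculitis, and PBS was its control. Age, sex, dose and the time after injection are not given in the labels. Whether each sample is its own mouse is left unsaid in the labels, and p-values here reflect only how far the deposited samples spread, which may be technical. Replicate numbers below follow the order of deposit and pair no samples.

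Before a cell divides, the origin recognition complex, Cdc6 and Cdt1 load the ring of Mcm2 to Mcm7 onto replication origins. Cdc45 and the GINS complex then join the ring to form the active helicase, and Pcna holds the polymerases on the opened strands while Rrm1, Rrm2, Tyms and Tk1 supply nucleotides. Later, cyclins with Cdk1, and the kinases Plk1, Aurka and Aurkb, drive mitosis, and kinesins and kinetochore proteins move the chromosomes. Most cardiomyocytes of the adult mouse have left the cell cycle, so dividing cells are a small part of the heart. Mcm8 is a relative of the Mcm2 to Mcm7 subunits that acts with Mcm9 in homologous recombination and is not part of the licensing ring.

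E2F factors are known to act on the promoters of S phase genes, and the NF-Y factor and the DREAM and MuvB complexes on those of mitotic genes, through CCAAT boxes and the cell cycle homology region (CHR). Promoter sequences from RefSeq (GRCm38.p6) were found for 32 of the 40 genes. Shown first are Mcm3 and Mcm6, the members that passed the test for LCWE averaged over both genotypes. Then come Mcm10, which did not pass and was highest in knockout PBS replicate 1, and Cdk1, Top2a and Mki67 from the mitotic side. Each line gives the 120 bases before the start site, 5′ to 3′ on the gene's strand, with the searched letters in capitals (CCAAT or its complement ATTGG, the CHR letters TTTGAA or TTCAAA, and the E2F letters). On GRCm38 these are chr1:20820313-20820432, chr1:128359706-128359825, chr2:5012792-5012911, chr10:69352913-69353032, chr11:99024190-99024309 and chr7:135716380-135716499, all on the minus strand.
Mcm3: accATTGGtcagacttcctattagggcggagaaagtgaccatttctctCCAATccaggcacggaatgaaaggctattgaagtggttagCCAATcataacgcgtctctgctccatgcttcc
Mcm6: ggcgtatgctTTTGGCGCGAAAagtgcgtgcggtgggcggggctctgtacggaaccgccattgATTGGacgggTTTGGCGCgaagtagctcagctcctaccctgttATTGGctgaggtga
Mcm10: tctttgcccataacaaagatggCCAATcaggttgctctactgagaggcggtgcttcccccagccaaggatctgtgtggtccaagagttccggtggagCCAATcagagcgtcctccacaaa
Cdk1: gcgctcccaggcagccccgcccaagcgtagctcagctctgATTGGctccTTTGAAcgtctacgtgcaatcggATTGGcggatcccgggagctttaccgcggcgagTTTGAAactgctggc
Top2a: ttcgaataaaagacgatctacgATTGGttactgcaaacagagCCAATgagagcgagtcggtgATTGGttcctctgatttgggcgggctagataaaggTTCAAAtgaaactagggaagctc
Mki67: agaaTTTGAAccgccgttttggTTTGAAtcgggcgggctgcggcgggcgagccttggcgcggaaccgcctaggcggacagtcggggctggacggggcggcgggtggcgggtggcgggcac

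Mcm3 held 3 CCAAT boxes, at 32 and 72 bases before the start, counted to the base of the motif farthest from it, and near the far end of the stretch. Mcm6 held E2F letters at 110, 106 and 47 bases, the first pair overlapping on opposite strands. In Cdk1 and Top2a a CHR lay close to the start, at 15 and 23 bases, with CCAAT boxes farther out. In the 250 bases before the start, on either strand, 9 of the 32 genes (28.1%) held TTTGAA, against 12.9% of the 11292 tested genes with a promoter. E2F letters (TTTCCCGC, TTTCGCGC, TTTGCCGC or TTTGGCGC) were found in 5 of 32 (15.6%) against 3.74%, and at least 2 copies of CCAAT in 15 of 32 (46.9%) against 14.4%. Over all 27025 genes with a promoter the shares were 18.3%, 2.16% and 11.5%. The E2F letters were in 4 of 9 promoters of the licensing and helicase genes and in 1 of 8 of the cyclins, mitotic kinases and spindle checkpoint. They were in 0 of 5 of DNA synthesis and nucleotide supply, 0 of 1 of the transcription factors and 0 of 9 of the chromosome and spindle genes. In the same order of lists, at least 1 CCAAT was found in 7 of 9, 8 of 8, 3 of 5, 0 of 1 and 7 of 9. The share of the tested genes was 39.8%. These are letter matches and not measured binding.

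**Figure D1:**
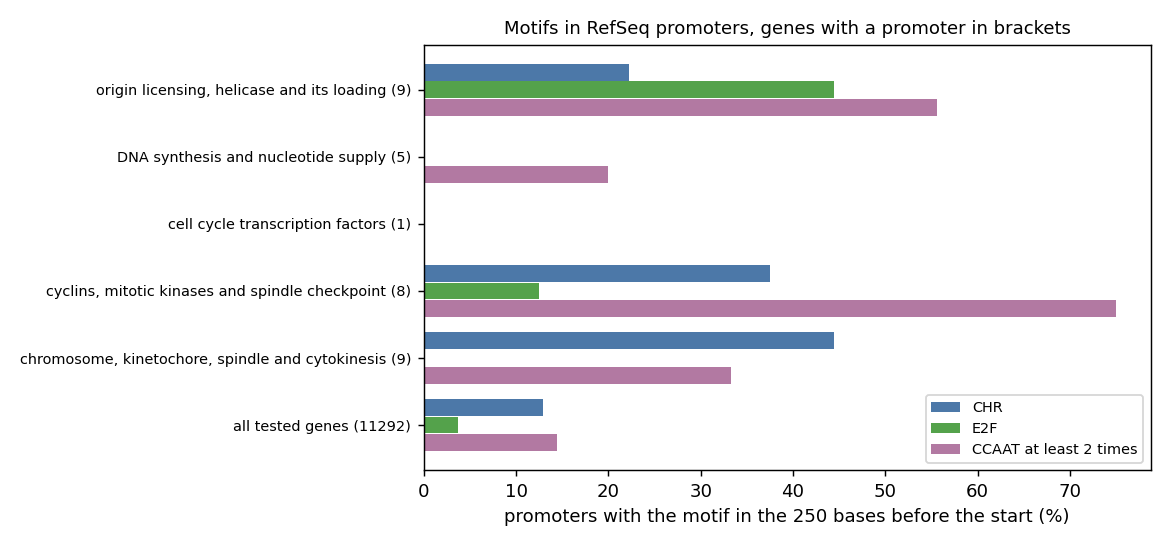
Share of genes (%, horizontal axis) whose RefSeq promoter held each motif in the 250 bases before the start, for the 5 role lists and all 11292 tested genes with a promoter, with the number of promoters in brackets. Bars start at 0; at least 2 copies of CCAAT were found in 6 of 8 promoters of the cyclins, mitotic kinases and spindle checkpoint, and E2F letters in 4 of 9 of the licensing and helicase genes.

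Total counts per library ranged from 11853233 to 16145911, and the 15 macrophage and 8 cardiomyocyte markers used as checks were all detected in every library. Mcm8 was at 2.84, 3.43, 3.42, 4.54 and 4.08 CPM (counts scaled to a common library total) in wild-type PBS hearts and at 0.91, 0.617 and 0.753 CPM in knockout PBS hearts. Under LCWE it was at 2.60 to 5.19 CPM in wild type (median 4.23) and at 0.155, 0.130, 0.749, 0.339 and 0.586 CPM in the knockout. No knockout library reached the lowest wild-type one, and Mcm8 fell by 2.26 ± 0.39 (log2 ± SE, adjusted p = 0.0316 by edgeR's quasi-likelihood test) under PBS and by 3.4 ± 0.34 (adjusted p = 5.12e-05) under LCWE. The PBS call was lost when any 1 of 8 libraries was left out (the 5 of wild-type PBS, knockout PBS replicates 1 and 3, and wild-type LCWE replicate 5), with adjusted p between 2.25e-05 and 0.166 over all settings, while the value stayed between -2.41 and -2.13. Under the other settings the PBS call was lost in 3 of 9. The LCWE call was kept without any 1 of the 19 libraries and lost in 1 of 10 other settings. Mcm9, the partner of Mcm8, lay between 4.29 and 7.18 CPM in all 19 libraries.

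Some libraries stood apart from their group in these genes. Wild-type LCWE replicate 1 was the highest of its 6 libraries for 34 of the 39 tested members, against 13.8% of all tested genes. Among the 3 knockout PBS hearts, replicate 2 was the highest for 27 of 39 members (37.0% of all tested genes), replicate 3 the lowest for 21 (27.1%) and replicate 1 the lowest for 15 (38.7%). Averaged over the 39 members, the log2 level relative to the mean of the 19 libraries was 1.05 in wild-type LCWE replicate 1 and 0.30, -0.03, -0.31, -0.06 and -0.50 in the other 5. The same average was -0.60, 0.20 and -0.73 in the knockout PBS hearts, 0.06, -0.13, 0.09, -0.39 and -0.24 in the wild-type PBS hearts, and 0.38, 0.28, 0.34, 0.17 and 0.13 in the knockout LCWE hearts. All 5 knockout LCWE libraries were thus above the overall mean, and the other 3 groups each had libraries on both sides of it.

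**Figure D2:**
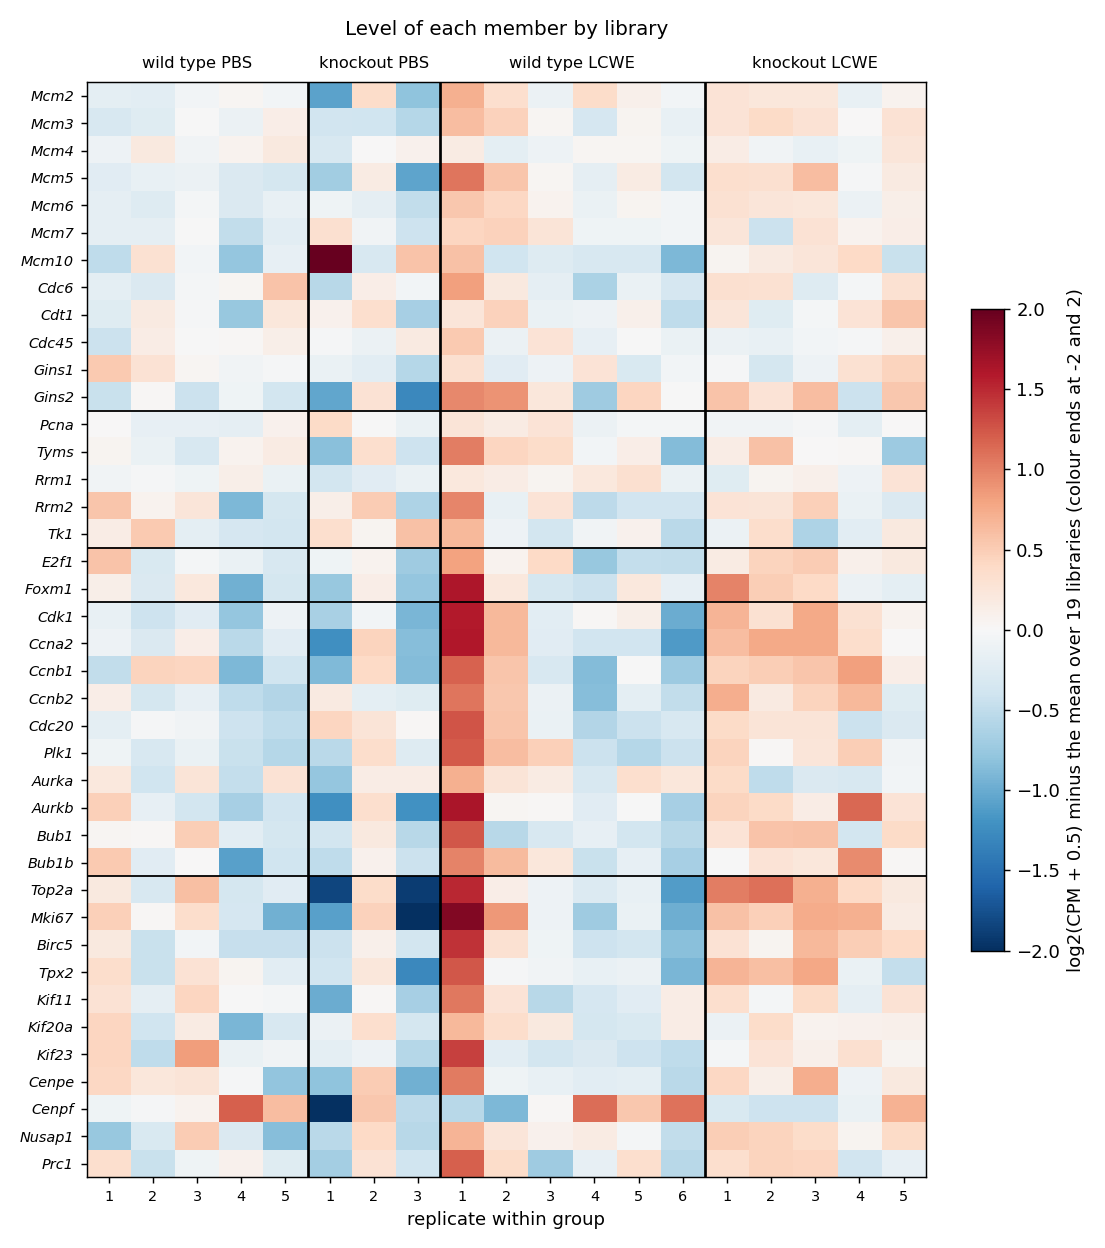
Level of the 40 genes (rows, ordered by role and separated by lines) in the 19 libraries (columns, by group and replicate), as log2(CPM + 0.5) minus the mean over the libraries; red is higher and blue lower, with colours ending at -2 and 2. Wild-type LCWE replicate 1 is red in nearly every row, and knockout PBS replicates 1 and 3 are mostly blue. Cenpf does not follow the other rows in the wild-type columns.

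Per length of exon, Pcna, the sliding clamp, was the most abundant member, with a median over the 19 libraries of 18.4 CPM per kilobase. The Mcm2 to Mcm7 subunits came next together with Rrm1, the large subunit of ribonucleotide reductase: Mcm7 at 4.89, Mcm4 at 2.94, Mcm3 at 2.84, Mcm6 at 2.65, Mcm5 at 1.66, Rrm1 at 1.65 and Mcm2 at 1.64 CPM per kilobase. The mitotic genes were lower than these, with Cdc20 at 1.38, Mki67 at 0.414, Top2a at 0.344, Cdk1 at 0.222 and Ccnb1 at 0.154 CPM per kilobase. The remaining replication genes were mixed among them, such as Cdt1 at 1.32, Tyms at 0.411 and Gins2 at 0.274 CPM per kilobase. Mcm10 (0.0869), Cenpe (0.0697) and Bub1 (0.0361) were the lowest. Of the members, 8 had a median of at least 100 counts per library (Pcna, Mcm7, Rrm1, Cenpf, Mcm6, Mcm2, Mcm4 and Mcm3), and 4 had under 10 (Cdc6, Mcm10, Cenpe and Bub1), where counting error is largest. The mean level was highest in knockout LCWE hearts for 20 of the 40 genes and in wild-type LCWE hearts for 12, and it was lowest in knockout PBS hearts for 26 and in wild-type PBS hearts for 10.

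Averaged over both genotypes, the replication genes Mcm3 and Mcm6 passed as higher with LCWE, and no member passed as lower. Within genotypes, neither gene passed in wild type and only Mcm3 passed in the knockout. Mcm3 was higher by 0.50 ± 0.12 on the log2 scale (adjusted p = 0.0397) and Mcm6 by 0.39 ± 0.10 (adjusted p = 0.0466), by edgeR's quasi-likelihood test on the mean of the 2 within-genotype contrasts. Of all 14301 genes, 2.95% were called in that comparison. At an unadjusted p under 0.05, 14 of the 39 tested members were higher and 0 lower, against 13.2% and 12.3% of all genes. The log2 difference was above 0 for 37 of the 39, with a median of 0.39, whereas 51.9% of all tested genes were above 0 and their median was 0.01. In whole hearts, a change in the number of dividing cells and a change in RNA per cell cannot be told apart.

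Mcm3 (chromosome 1, 20802968 to 20820312, minus strand, GRCm38) was at 8.27, 8.85, 10.5, 9.68 and 11.6 CPM in the wild-type PBS hearts and at 7.91, 7.89 and 6.93 CPM in the knockout PBS hearts. Under LCWE it ranged from 8.18 to 16.3 CPM in wild type (median 10.8) and was at 12.8, 13.8, 12.9, 10.6 and 12.9 CPM in the knockout. In the knockout every LCWE heart was above every PBS heart, and in wild type the ranges overlapped, with LCWE replicate 4 at 8.18 CPM below all 5 PBS hearts. The averaged call was lost when any 1 of 13 libraries was left out; it was kept without knockout PBS replicate 2, wild-type LCWE replicates 4, 5 or 6 or knockout LCWE replicates 2 or 4, and adjusted p ran from 0.00798 to 0.133 over the alternatives.

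Mcm6 (chromosome 1, 128331590 to 128359664, minus strand) was at 11.4, 10.8, 12.6, 10.5 and 11.7 CPM in wild-type PBS hearts and at 12.2, 11.4 and 9.04 CPM in knockout PBS hearts. With LCWE the wild-type hearts were between 11.8 and 19.1 CPM (median 13.6), and the knockout hearts were at 16.1, 15.4, 15.2, 11.9 and 14.1 CPM. The lowest LCWE heart of each genotype lay within the PBS range, and the others except wild-type LCWE replicate 6, at 12.4 CPM, were above all PBS hearts of either genotype. This call was lost without any 1 of 15 libraries and kept without knockout PBS replicate 2, wild-type LCWE replicates 4 or 6 or knockout LCWE replicate 4 (adjusted p from 0.0152 to 0.133). Without wild-type LCWE replicate 1 neither gene passed (1.11% of all genes did), the median over members was 0.23 and 31 of 39 members were above 0. Without knockout PBS replicate 2, in contrast, 14 members rose and 19.6% of all genes were called, with only replicates 1 and 3 left in that group. Without wild-type LCWE replicate 6, Mcm3, Mcm5, Mcm6 and Cdk1 rose, with 4.65% of all genes called.

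Among the remaining helicase genes, Mcm5 was higher by 0.67 ± 0.20 (adjusted p = 0.0613), Mcm2 by 0.44 ± 0.17 and the GINS subunit Gins2 by 1.10 ± 0.38 (adjusted p = 0.0872), none past the threshold. Mcm4, a subunit of the same ring, was at 0.01 ± 0.09. Of the 12 licensing and helicase genes, 2 rose and 0 fell, 11 were above 0 and the median was 0.24. The 5 genes of DNA synthesis and nucleotide supply had a median of 0.08, with Rrm1 at 0.23 ± 0.08 (adjusted p = 0.0977), and 0 of 5 passed. Both cell cycle transcription factors were above 0, Foxm1 at 0.88 ± 0.35 and E2f1 at 0.34 ± 0.26, and neither passed. All 9 tested cyclins, kinases and checkpoint genes and all 11 chromosome and spindle genes were above 0, with medians of 0.63 and 0.49, and 0 of these 20 passed. The smallest p among them belonged to Cdk1, the kinase that starts mitosis, at 1.21 ± 0.38 (adjusted p = 0.0708). Only Mcm10 (-0.70) and the thymidine kinase Tk1 (-0.21) were below 0, and neither passed.

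**Figure D3:**
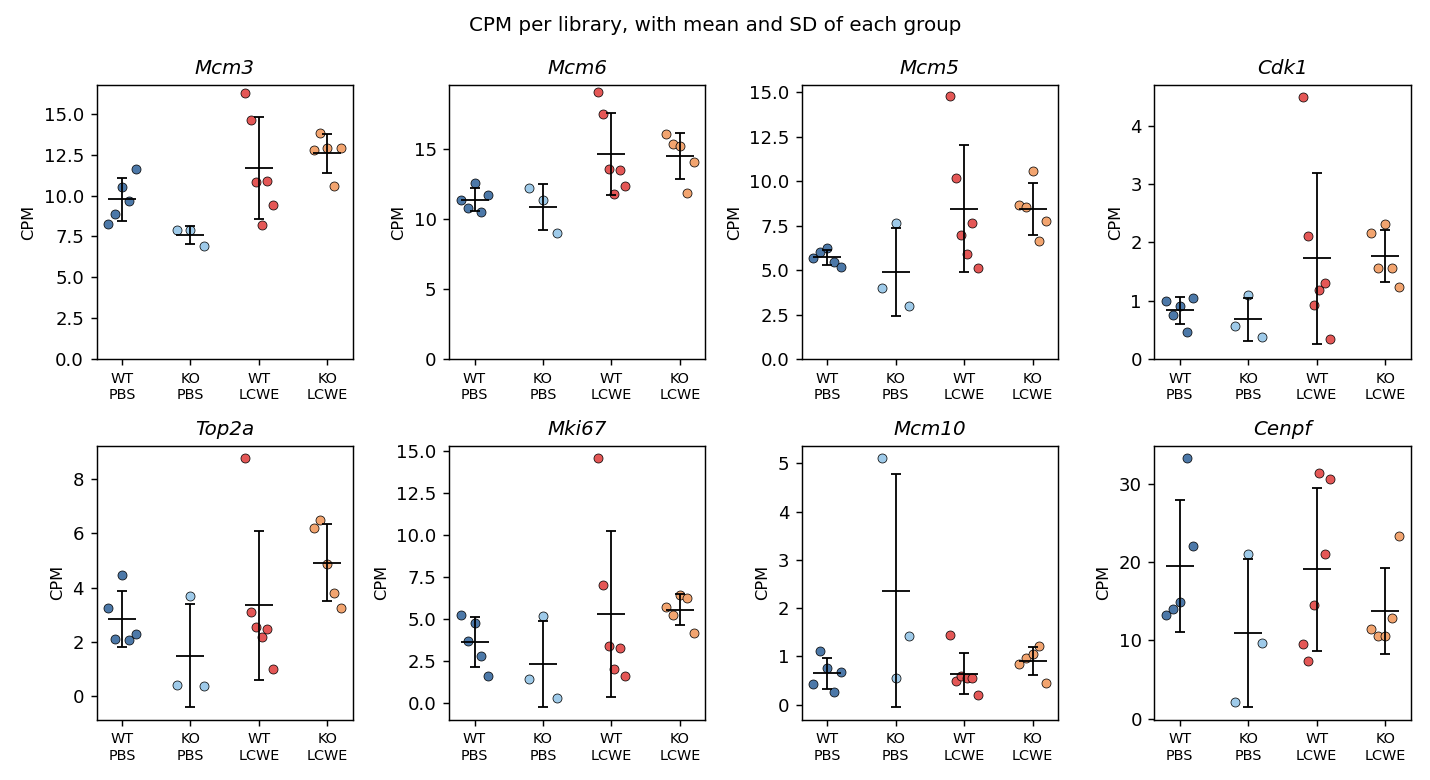
Level of 8 genes in CPM (vertical axis, linear) in each library of the 4 groups, with the group mean and SD as bars. Mcm3 does not overlap between knockout PBS and knockout LCWE, 1 wild-type LCWE library tops the panels of Mcm5, Cdk1, Top2a and Mki67, and 1 knockout PBS library tops that of Mcm10.

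In wild-type hearts alone, no member passed the test between LCWE and PBS (0 of 39, adjusted p from 0.772 to 0.998 by edgeR; DESeq2 and limma-voom also called 0). The rate over all genes was 0% as well. Unadjusted, 5 members were higher and 0 lower, against 4.59% and 1.64% of all genes. Those 5 were Mcm6 (0.36 ± 0.13), Mcm7 (0.39 ± 0.16), Mcm5 (0.56 ± 0.25), Cdk1 (1.05 ± 0.47) and the mitotic kinase gene Plk1 (0.81 ± 0.38). The lower side was led by Gins1 (-0.20 ± 0.23) and Mcm4 (-0.09 ± 0.12). Altogether 32 of 39 members were above 0 with a median of 0.34, and for 0 of them did the 2 groups fail to overlap (0.441% of all genes were apart upward and 0.259% downward).

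The wild-type LCWE hearts spread widely. Cdk1 was at 1.0, 0.747, 0.912, 0.467 and 1.04 CPM in the PBS hearts and between 0.338 and 4.49 CPM under LCWE (median 1.24). Mki67, the gene of the proliferation antigen Ki-67, was at 5.26, 3.74, 4.79, 2.80 and 1.63 CPM in the PBS hearts and between 1.62 and 14.6 CPM under LCWE (median 3.34). The highest value of both genes came from LCWE replicate 1 and the lowest LCWE value from replicate 6. For Cdk1 that lowest value lay below all PBS hearts. For Mki67 it was level with the lowest PBS heart, at 1.62 against 1.63 CPM, from 24 and 22 counts. Without replicate 1 the median over members was 0.10 and 22 of 39 were above 0. The sample names carry a number, and among hearts numbered from 100 to under 200 (4 PBS and 3 LCWE, the highest LCWE library among them) 7 of 40 members rose in wild type: Mcm3, Mcm5, Mcm6, Gins2, Pcna, Cdk1 and Plk1. In that comparison 8.28% of all genes were called, the largest member value was that of Cdk1 (1.67 ± 0.46, adjusted p = 0.0447 by edgeR), 37 of 40 members were above 0 and the median was 0.57. With LCWE replicate 1 also left out, 3 of 39 passed, Mcm6 (0.42 ± 0.14), Pcna (0.30 ± 0.09) and Plk1 (0.98 ± 0.32), beside 21.4% of all genes, and the median was 0.30. What the sample numbers stand for is not given in the labels.

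In Mcm8 knockout hearts, Mcm3 rose with LCWE by 0.74 ± 0.19 (adjusted p = 0.0438 by edgeR) and was the 1 member of 39 that passed, where 2.90% of all genes did. Unadjusted, 8 members were higher and 1 lower, against 10.7% and 12.7% of all genes. Besides Mcm3 the higher ones were Mcm6 (0.42 ± 0.16, adjusted p = 0.127), Mcm5 (0.78 ± 0.31), Gins2 (1.28 ± 0.59), Rrm1 (0.27 ± 0.13), Cdk1 (1.36 ± 0.59), Aurkb (1.66 ± 0.79) and Top2a (1.70 ± 0.67). The lower one was Mcm10, which is needed to start the helicase, at -1.37 ± 0.58 (adjusted p = 0.161), followed by Tk1 at -0.42 ± 0.30. The difference was above 0 for 33 of 39 members with a median of 0.52. For 4 members, Mcm3, E2f1, Cdk1 and Kif23, named after their values were seen, every LCWE heart was above every PBS heart, and for 0 below, against 4.91% and 3.70% of all genes. Cdk1 was at 0.56, 1.1 and 0.377 CPM in the knockout PBS hearts, from 8, 16 and 5 counts. In the knockout LCWE hearts it was at 2.16, 1.56, 2.32, 1.56 and 1.24 CPM.

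Top2a, the topoisomerase that untangles replicated chromosomes, shows how the knockout PBS hearts divided. It was at 0.42, 3.70 and 0.377 CPM in those 3 hearts and at 6.18, 6.49, 4.87, 3.79 and 3.25 CPM in the knockout LCWE hearts. In wild type it was at 3.26, 2.12, 4.48, 2.07 and 2.30 CPM after PBS and from 1.01 to 8.77 CPM after LCWE (median 2.50). Knockout PBS replicates 1 and 3 were below all 17 other hearts, and replicate 2 lay within the wild-type PBS range. Aurkb, the kinase of the chromosomal passenger complex, had the same shape, at 0.070, 1.17 and 0.0753 CPM in the knockout PBS hearts against 1.31, 1.23, 0.974, 2.44 and 1.11 CPM in the knockout LCWE hearts. The low pair rests on 1 count of Aurkb in each library. In wild type Aurkb was at 1.34, 0.685, 0.532, 0.334 and 0.52 CPM after PBS. After LCWE it ranged there from 0.338 CPM in replicate 6 to 3.62 CPM in replicate 1.

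Leaving out knockout PBS replicate 2 raised the number of members called in knockout hearts from 1 to 12, of which 11 rose and 1, Mcm10, fell. Only replicates 1 and 3, the pair low in Top2a and Aurkb, were then left in the knockout PBS group. Under that setting 20.2% of all genes were called, so the members' share of 12 in 39 stands beside a much higher background. The 11 were Mcm2, Mcm3, Mcm5, Gins2, Ccna2, Ccnb1, Aurkb, Top2a, Mki67, Kif11 and Cenpe. Mcm2 was then higher by 1.14 ± 0.21 and Top2a by 3.59 ± 0.73 (adjusted p = 0.00175 and 0.00301 by edgeR). With all libraries, the Mcm3 call itself was lost without any 1 of 11 libraries, which were knockout PBS replicates 1 and 3, wild-type PBS replicates 1 to 4, wild-type LCWE replicate 5 and knockout LCWE replicates 1, 2, 3 and 5, while its value stayed between 0.65 and 0.80.

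Between Mcm8 knockout and wild-type hearts after PBS no member passed the test (0 of 39, adjusted p from 0.101 to 0.979 by edgeR, with 0 by DESeq2 and limma-voom), where 0.601% of all genes were called. Unadjusted, 1 member was higher and 0 lower, against 12.3% and 7.42% of all genes. That member was Mcm10, at 1.85 ± 0.59 (adjusted p = 0.101). The next in the upward direction was Pcna at 0.18 ± 0.12, and the lower side was led by Gins1 (-0.58 ± 0.28) and Mcm3 (-0.37 ± 0.19). Altogether 13 of 39 members were above 0 and the median was -0.22, with 50.2% of all genes above 0. The groups did not overlap for Cdc20, which was higher in the knockout, and for Gins1 and Mcm3, which were lower. All 3 were named after their values were seen, and 4.10% of all genes were apart upward and 3.62% downward.

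Mcm10 was at 5.11, 0.549 and 1.43 CPM in the knockout PBS hearts, from 73, 8 and 19 counts, and at 0.417, 1.12, 0.760, 0.267 and 0.668 CPM in the wild-type PBS hearts. Under LCWE it was between 0.203 and 1.45 CPM in wild type (median 0.55) and at 0.850, 0.974, 1.05, 1.22 and 0.455 CPM in the knockout. Knockout PBS replicate 1 was above every other library, and replicate 2 of that group lay within the wild-type range. Mki67 was at 5.72, 5.26, 6.44, 6.3 and 4.16 CPM in the knockout LCWE hearts. In the 3 knockout PBS hearts it was at 1.47, 5.21 and 0.301 CPM, highest where Mcm10 was lowest. Without replicate 1 the Mcm10 difference was 0.59 (adjusted p = 0.903). Without replicate 2, which left only replicates 1 and 3 in that group, it passed at 2.32 ± 0.56 (adjusted p = 0.00878 by edgeR). Top2a (-2.80 ± 0.72) and Mcm2 (-0.89 ± 0.21) then fell, with 17.9% of all genes called. Among the other settings, a term for the range of the sample number brought Mcm10 past the threshold (2.01, adjusted p = 0.0478 by edgeR). A term for the level of Ddx3y, a Y-linked gene, lowered it to 1.18 (adjusted p = 0.352), limma-voom gave 1.39 (adjusted p = 0.222), and a fit of only the groups compared gave 1.83 (adjusted p = 0.233).

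Under LCWE, again no member passed between knockout and wild-type hearts (0 of 39, adjusted p from 0.901 to 1 by edgeR; 0 also by DESeq2 and limma-voom). Over all genes 0.00699% passed, which is 1 gene. Unadjusted, 0 members were higher and 0 lower, against 2.43% and 3.12% of all genes. The smallest p values were those of Top2a (0.55 ± 0.50) and E2f1 (0.32 ± 0.33) on the higher side, and of Aurka (-0.53 ± 0.33) and Pcna (-0.16 ± 0.10) on the lower. The median was 0.04 with 22 of 39 above 0, and the groups overlapped for all 39, where 0.168% of all genes were apart upward and 0.364% downward. The 95% intervals over the members ran from -1.47 to 1.93 at their widest, with a median SE of 0.34.

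**Figure D4:**
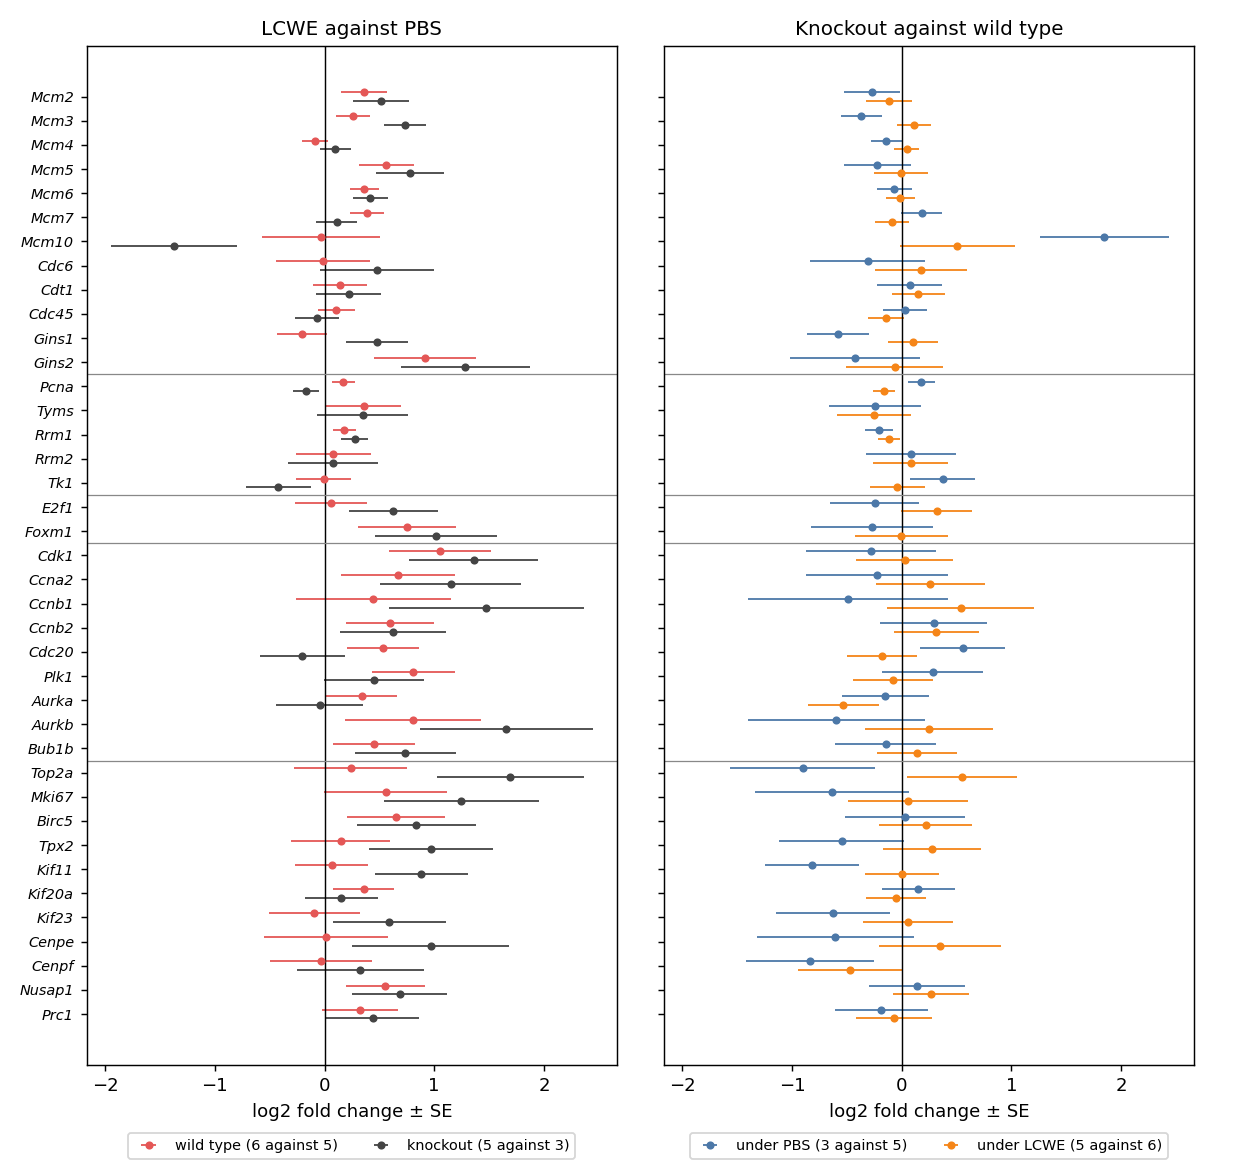
Log2 fold change with its SE (horizontal axis) of the 39 tested members (rows, by role) for LCWE against PBS in each genotype (left) and for knockout against wild type under each treatment (right). Most values on the left lie above 0, with Mcm10 in the knockout at -1.37, while on the right the LCWE values sit near 0 and Mcm10 under PBS lies at 1.85.

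The LCWE effect was not shown to differ between the genotypes for any member (0 of 39 by edgeR's test of the interaction, adjusted p from 0.606 to 0.999, and 0 by DESeq2 and limma-voom). Over all genes 0% passed. Unadjusted, 0 members had a larger and 1 a smaller effect in the knockout, against 3.03% and 4.98% of all genes. The one was Pcna at -0.34 ± 0.16 (adjusted p = 0.606), next to Mcm10 at -1.34 ± 0.80. On the other side were Mcm3 (0.48 ± 0.24) and Gins1 (0.68 ± 0.36). The median was 0.19, with 28 of 39 members above 0. Without knockout PBS replicate 2, so with only replicates 1 and 3 in that group, the median was 0.57 and 1 member passed. That member was Top2a (3.4 ± 0.82, adjusted p = 0.0361 by edgeR), where 3.31% of all genes passed. Averaged over both treatments, no member passed between the genotypes either (0 of 39 by edgeR, 0.0140% of all genes, and 0 by DESeq2 and limma-voom). For Mcm10, however, DESeq2 gave a value of 1.2 without an adjusted p. Its count of 0 therefore covers only members that had an adjusted p. Unadjusted, Mcm10 was the 1 higher member (1.18 ± 0.39, adjusted p = 0.120 by edgeR) and 0 were lower, against 12.0% and 8.64% of all genes, with the cyclin gene Ccnb2 (0.30 ± 0.31), Rrm1 (-0.16 ± 0.08) and Cenpf (-0.65 ± 0.38) next. With only replicates 1 and 3 kept in knockout PBS, Mcm10 (1.41 ± 0.36, adjusted p = 0.0148) and Mcm2 (-0.50 ± 0.13, adjusted p = 0.0129) passed there by edgeR, with 16.5% of all genes. These contrasts share their libraries with those above and are no separate support for them.

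Pcna, the clamp, was at 45.8, 40.4, 40.5, 39.8 and 48.2 CPM in wild-type PBS hearts and at 59.4, 45.0 and 41.3 CPM in knockout PBS hearts. With LCWE it was between 41.8 and 54.7 CPM in wild type (median 47.6) and at 43.3, 43.3, 44.7, 39.5 and 45.4 CPM in the knockout. The 4 groups overlapped, with the highest value in knockout PBS replicate 1, the library that was also highest in Mcm10.

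Cenpf, a large kinetochore protein, did not follow the other mitotic genes in the wild-type hearts. It was at 13.3, 14.0, 14.9, 33.3 and 22.0 CPM in wild-type PBS hearts and at 2.10, 21 and 9.72 CPM in knockout PBS hearts. In the knockout PBS hearts it was highest in replicate 2, as Top2a and Aurkb were. Under LCWE it ranged from 7.37 to 31.4 CPM in wild type (median 17.8) and was at 11.4, 10.5, 10.5, 12.9 and 23.4 CPM in the knockout. Its highest library was wild-type PBS replicate 4, which was the lowest of its group for 17 of the 39 members, and wild-type LCWE replicate 1 was among the lower ones at 9.49 CPM. No contrast passed for it, the largest being -0.83 ± 0.58 for the knockout under PBS.

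The remaining replication factors passed no contrast. Cdc45, which activates the helicase, was at 4.16 ± 0.68 CPM (SD, n = 5) in wild-type PBS, 4.26 ± 0.50 (n = 3) in knockout PBS, 4.50 ± 1.04 (n = 6) in wild-type LCWE and 4.07 ± 0.31 (n = 5) in knockout LCWE hearts. The licensing factor Cdt1 was at 3.61 ± 1.03, 3.8 ± 1.40, 3.98 ± 1.02 and 4.43 ± 1.03 CPM in the same order, and Cdc6 at 0.680 ± 0.298, 0.546 ± 0.242, 0.671 ± 0.457 and 0.761 ± 0.219 CPM. In all 3 genes the groups overlapped. Gins1 was at 2.37 ± 0.52, 1.58 ± 0.33, 2.06 ± 0.47 and 2.20 ± 0.61 CPM. Mcm5 went from 5.72 ± 0.42 and 4.89 ± 2.46 CPM after PBS, wild type and knockout, to 8.45 ± 3.59 and 8.43 ± 1.44 CPM after LCWE, and Mcm2 from 10.3 ± 0.79 and 8.56 ± 5.20 to 13.3 ± 3.10 and 12.3 ± 1.46 CPM. For both genes the SD of wild-type LCWE and knockout PBS was larger than that of the other groups.

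Of the nucleotide genes, Tyms, Rrm1 and Rrm2 had higher means after LCWE in both genotypes, Tk1 did not, and none passed a contrast with all libraries. Tyms, thymidylate synthase, was at 2.35 ± 0.37, 1.98 ± 1.05, 3.0 ± 1.42 and 2.52 ± 0.93 CPM in wild-type PBS, knockout PBS, wild-type LCWE and knockout LCWE hearts. Rrm1 was at 18.1 ± 1.23, 15.6 ± 1.34, 20.5 ± 2.19 and 18.9 ± 2.64 CPM, and its partner Rrm2 at 2.82 ± 1.19, 2.97 ± 1.27, 2.98 ± 1.60 and 3.15 ± 0.78 CPM. Tk1 was highest in knockout PBS hearts, at 5.30 ± 1.08 CPM against 4.07 ± 1.29, 4.06 ± 1.42 and 3.94 ± 1.12 CPM in the wild-type PBS, wild-type LCWE and knockout LCWE hearts, within the spread of the libraries.

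Among the transcription factors, E2f1 was at 1.80 ± 0.65, 1.5 ± 0.53, 1.87 ± 1.03 and 2.33 ± 0.36 CPM, and Foxm1, the activator of mitotic genes, at 1.37 ± 0.55, 1.12 ± 0.63, 2.29 ± 1.90 and 2.30 ± 0.97 CPM in the same order of groups. The mitotic cyclin Ccna2 was at 1.24 ± 0.30, 1.05 ± 1.0, 1.96 ± 1.88 and 2.36 ± 0.59 CPM, and Ccnb1 at 0.492 ± 0.403, 0.346 ± 0.473, 0.673 ± 0.690 and 0.991 ± 0.253 CPM. Plk1 was at 1.09 ± 0.22, 1.32 ± 0.60, 1.91 ± 1.27 and 1.81 ± 0.39 CPM. In these genes the SD of wild-type LCWE was the largest of the 4 groups, and the knockout LCWE mean was at or above the others except for Plk1. The checkpoint gene Bub1b was at 1.87 ± 0.93, 1.67 ± 0.51, 2.53 ± 1.37 and 2.80 ± 1.01 CPM, the survivin gene Birc5 at 0.884 ± 0.304, 0.896 ± 0.294, 1.38 ± 1.29 and 1.61 ± 0.32 CPM, and the spindle midzone gene Prc1 at 2.45 ± 0.62, 2.14 ± 0.96, 3.05 ± 1.87 and 2.92 ± 0.84 CPM. Bub1, untested, was between 0 and 1.23 CPM in every library.

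Other genes of the cell cycle, given from lists of related function, held 3 calls in the averaged LCWE contrast, where 2.95% of all genes were called. Of 41 tested mitosis genes outside the members, 1 rose, the kinesin Kif2c (1.93 ± 0.50, adjusted p = 0.0438 by edgeR), 0 fell, and 37 were above 0 with a median of 0.49. Kif2c rests on 0 to 24 counts per library. Of 23 polymerase, clamp loader and repair synthesis genes, 1 rose, Pole4 of DNA polymerase epsilon (0.37 ± 0.10, adjusted p = 0.0457), 0 fell, and 22 were above 0 with a median of 0.22. Of 24 tested inhibitors and repressors of the cycle, Cdkn1a, which encodes the Cdk inhibitor p21, fell by 1.16 ± 0.26 (adjusted p = 0.0370), 0 rose, and the median was -0.09. The means of Cdkn1a were 118 ± 37.9 and 187 ± 103 CPM after PBS in wild type and knockout, and 62.7 ± 20.3 and 70.6 ± 30.6 CPM after LCWE.

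The 19 tested origin and fork genes outside the members had a median of -0.02, 9 above 0 and 0 called, with Tipin at 0.46 ± 0.14 (adjusted p = 0.0630). The 15 tested genes of the list of G1 cyclins, kinases and activators had a median of 0.22 and 0 called. Its smallest p was that of Cdc25b, an activator not particular to G1, in the knockout PBS contrast (0.82 ± 0.21, adjusted p = 0.0617 by edgeR). In knockout hearts, where 2.90% of all genes were called, Lig1, the DNA ligase of Okazaki fragments, rose with LCWE as the 1 call among the 23 polymerase and repair genes (1.10 ± 0.29, adjusted p = 0.0441 by edgeR). Of the 41 mitosis genes, Lmnb1, a lamin of the nuclear envelope, rose (1.13 ± 0.27, adjusted p = 0.0357) and Cenpa, the centromeric histone, fell by 0.51 ± 0.12 (adjusted p = 0.0346). These shares of called genes are close to those over all genes, and the calls depended on single libraries. Lmnb1 and Cenpa were lost without knockout PBS replicates 1 or 3 or knockout LCWE replicates 1, 3 or 5. Cdkn1a was lost without any 1 of 10 libraries: the 5 of wild-type PBS, knockout PBS replicates 1 and 3, wild-type LCWE replicate 2 and knockout LCWE replicates 3 and 5. Pole4 was kept only without knockout PBS replicate 2, wild-type LCWE replicates 4 or 6 or knockout LCWE replicate 4, Lig1 only without knockout PBS replicate 2 or wild-type LCWE replicates 2 or 3, and Kif2c, tested in 16 of the 19 such fits, in 4 of them (without knockout PBS replicate 2, wild-type LCWE replicates 4 or 6 or knockout LCWE replicate 2). Under the other settings, Cenpa was lost in 4 of 10, Lig1 in 5 of 10, Lmnb1 in 3 of 10, Kif2c in 5 of 8, Pole4 in 5 of 9 and Cdkn1a in 2 of 9.

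Markers of other cell types differed beside the members. In the averaged LCWE contrast, with 2.95% of all genes called, 10 of 15 macrophage and monocyte markers rose with a median of 1.09, 3 of 8 tested neutrophil markers rose with a median of 2.89, 1 of 8 T and NK cell markers rose (median 1.72), and 0 of 8 fibroblast markers passed (median 0.50). One call each was made among 4 tested thymocyte and lymphocyte progenitor markers (median 0.20), 6 platelet and erythroid markers (median 0.83) and 8 cardiomyocyte markers (median 0.04), all upward. No marker passed among 4 of B and plasma cells (median 0.45), 8 of endothelial cells (median -0.14, with 6 below 0) and 6 of smooth muscle and pericytes (median -0.08). Without knockout PBS replicate 1, 0 genes of any kind were called in this contrast, so these calls were all lost there. The summed macrophage markers were at 372 to 465 CPM in wild-type PBS, 202 to 515 in knockout PBS, 413 to 964 in wild-type LCWE and 507 to 1520 in knockout LCWE hearts. The summed neutrophil markers were at 2.66 to 9.41, 3.4 to 6.1, 7.23 to 61.4 and 6.80 to 115 CPM in the same order. The summed fibroblast markers were at 953 to 1600, 909 to 1230, 972 to 2060 and 1110 to 2050 CPM, and all 8 were detected in every library.

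Wild-type LCWE replicate 1, the highest in the members, had a fibroblast sum of 2060 CPM, next to 2050 and 2020 CPM in knockout LCWE replicates 1 and 2, while its neutrophil sum (10.9 CPM) and macrophage sum (762 CPM) were below those of replicate 3 (61.4 and 964 CPM), whose members averaged -0.03. Knockout LCWE replicate 4 had the highest macrophage and neutrophil sums (1520 and 115 CPM) with a member average of 0.17. Knockout PBS replicates 1 and 3, low in the members, had macrophage sums of 223 and 202 CPM and fibroblast sums of 992 and 909 CPM, against 515 and 1230 CPM in replicate 2. Of the 10 T and NK cell markers, 7 and 5 were listed at 0 in replicates 1 and 3 and 0 in replicate 2. The part of these cell types in the members' differences was not tested.

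**Figure D5:**
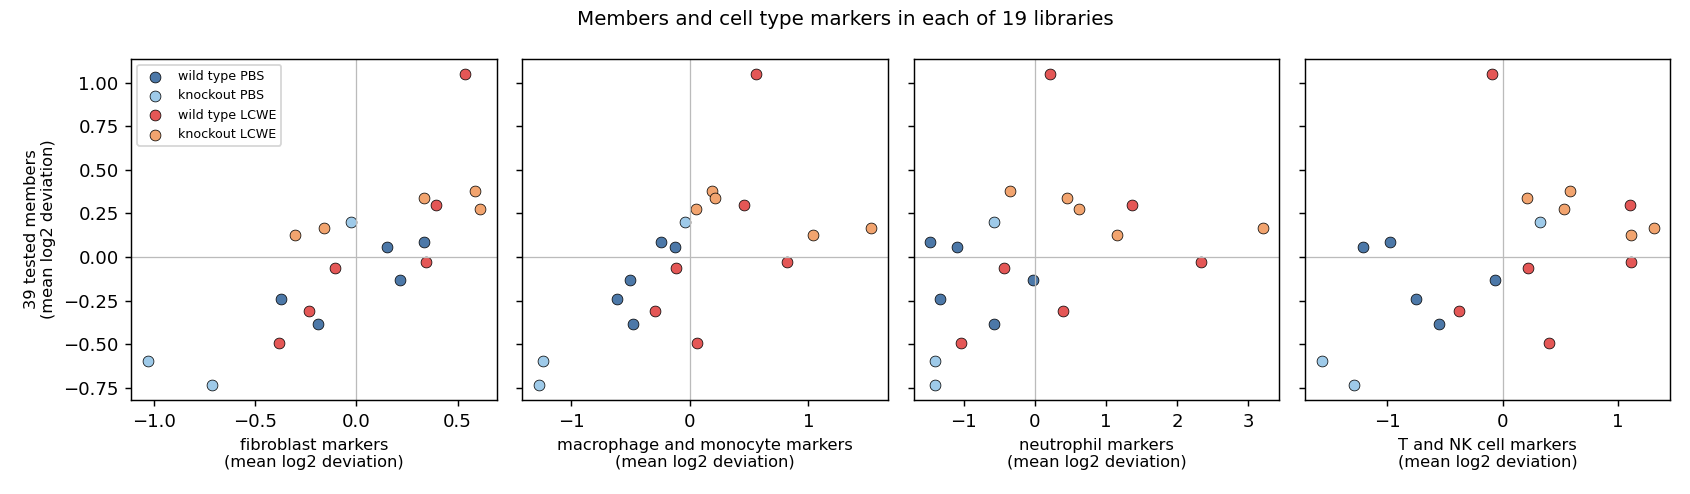
Mean log2 deviation of the 39 tested members (vertical axis) against that of the fibroblast, macrophage and monocyte, neutrophil, and T and NK cell markers (horizontal axes) in each of the 19 libraries, coloured by group. Knockout PBS replicates 1 and 3 sit at the lower left of every panel, and wild-type LCWE replicate 1, at 1.05, is above all other libraries without being at the far right for neutrophil or T and NK cell markers.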

How the data were processed

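RNA counts of 19 mouse heart samples were analysed. The deposited values are whole-number read counts per gene, 1 column per sample, and the submitters' processing notes list STAR 2.7.8a, limma 3.36.160 and GRCm38 without their roles. How reads were counted (program, annotation, strand) is not given in the sources used here, so reads of overlapping and antisense genes cannot be told apart. Per the labels' protocols total RNA went through reverse transcription and preamplification of the whole transcriptome, which can add spread to low counts. Other per-sample columns numbered 0, and no pair of libraries agreed within sampling noise (lowest chi-square per gene 7.2).

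Groups follow the genotype and treatment in the labels. Genes passed edgeR's filterByExpr (minimum count 10, minimum total 15). TMM scaling and edgeR 4.0.16's robust quasi-likelihood test in R 4.3.3 were run over 14301 genes with a 4-group model and 7 contrasts, with Benjamini-Hochberg adjustment and a threshold of 0.05, after tests on simulated data. Log2 fold changes are given with SE; CPM uses TMM-scaled totals, and levels per length divide by GENCODE M21 exon length. Averages over members use log2 CPM with a prior count of 2. Alternatives were RLE factors, library totals, no filter, 5 CPM in 3 libraries, DESeq2 1.42.0, limma-voom 3.58.1, a non-robust fit, the sample-number range or Ddx3y (sex is not labelled) as a term, only the groups compared, only numbers from 100 to under 200, and each library left out.

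The members and lists were chosen with earlier results of these data known. By rule, each comparison names every member called and the 2 with the smallest p in each direction, 27 members are given in every group, and related lists name each called gene or else the smallest p. Other genes named, such as those past an unadjusted p, were chosen after their values were seen.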

Additional observations from a re-analysis of the deposited data

Results flagged for a closer look

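Of 120 sets of values (40 genes in the 3 groups of 4 or more libraries), 14 had a library standing far from the others by Dixon's test. It flags about 1 in 20 by chance if sets are independent and normally spread. These sets share libraries and hold untransformed CPM, so their number cannot be read against that rate. Wild-type LCWE replicate 1 gave 10 of the 14, all on the high side. They were the topoisomerase gene Top2a (8.77 CPM, next highest 3.10), Foxm1 (6.08, next 1.98), the kinesins Kif23 (4.27, next 1.11) and Kif11 (3.91, next 2.04), and the spindle assembly gene Tpx2 (4.13, next 1.42). Birc5 (3.91 CPM, next 1.49), Aurkb (3.62, next 0.867), Cenpe (1.81, next 0.557), Mcm10 (1.45, next 0.595) and Bub1 (1.23, next 0.157) completed them. E2f1 was high in wild-type PBS replicate 1, at 2.92 CPM with 1.75 next. Knockout LCWE replicate 4 was high in Aurkb (2.44 CPM, next 1.31) and Bub1b (4.54, next 2.66), and knockout LCWE replicate 5 in Cenpf (23.4 CPM, next 12.9).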

How the results depend on the processing

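The count of members called in wild-type LCWE hearts, 0 with all libraries, was 7 with only sample numbers from 100 to under 200, and 3 in that range without wild-type LCWE replicate 1, an alternative chosen after seeing the data. In knockout hearts the count of 1 was 0 with no filter on low counts, with limma-voom, with the sample-number range as a term and with only the groups compared, and 0 to 12 when 1 library was left out. For the averaged LCWE contrast the count of 2 was 1 with library totals, 1 with no filter, 5 with DESeq2, 0 with limma-voom, 0 with the range term, 1 with the Ddx3y term, and 0 to 14 with 1 library left out. Between genotypes under PBS, 0 became 1 with the range term and 0 to 3 with 1 library left out. For the interaction, leaving out 1 library gave 0 to 1 members and a median between 0.0377 and 0.573, and for the genotypes averaged over treatments 0 to 2 members. The cause was not tested. No value of Mcm8 where called, of a called member or of a called gene of the related lists turned its sign in any setting run. Other called genes, markers included, were not followed across settings.

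Counts over all genes moved more. The 415 genes called for LCWE in knockout hearts were 229 with library totals, 1260 with DESeq2, 116 with the range term and within 1 of that with limma-voom, 747 with the Ddx3y term and 0 with only the groups compared. The 422 of the averaged contrast were 234 with no filter, 1351 with DESeq2, 127 with limma-voom, 51 with the range term and 845 with the Ddx3y term. The 86 between genotypes under PBS were 21 with library totals, 699 with DESeq2, 1 with limma-voom, 524 with the range term, 0 with the Ddx3y term and 1 with only the groups compared. Leaving out 1 library moved these counts most: the 415 ran from 1 (without knockout PBS replicate 1) to 2935 (without knockout PBS replicate 2), the 422 from 0 to 2847 and the 86 from 0 to 2606 with the same libraries left out. The 86 were also 0 to 5 without any 1 wild-type PBS library, and 0 without knockout PBS replicate 3 or wild-type LCWE replicate 5. DESeq2 called 1 gene for LCWE in wild type (edgeR 0), 8 between genotypes under LCWE (edgeR 1), 5 for the interaction (edgeR 0) and 672 between genotypes averaged (edgeR 2, and 260 with the range term). No paired analysis was possible because the replicate numbers only follow the order of deposit and the labels pair no samples. Low counts limit Cdc6, Mcm10, Cenpe and Bub1, whose medians are under 10 counts.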
